A study of Mus musculus with 6 samples.

Results

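Adipocytes receive noradrenaline through adrenergic receptors and relay it through cyclic AMP (cAMP). The 9 genes described here cover each step of that relay: the receptors Adrb1, Adrb3 and Adra2a, the stimulatory G protein alpha subunit Gnas, the adenylyl cyclase Adcy3, the phosphodiesterases Pde3b and Pde4d, and the protein kinase A (PKA) subunits Prkar2b and Prkaca. They were taken by symbol from the table of normalized counts, which holds 35976 genes, and all 9 were found and passed the filter on low values, among 14211 genes that did. RNA came from primary mouse adipocytes of the genotype Ppargc1a(fl/fl), in which the gene for the coactivator PGC-1alpha is flanked by loxP sites in every group, and which were fully differentiated before harvest. The 6 libraries formed 3 groups of 2. The control libraries came from cells that received an adenovirus for GFP and a control siRNA. The knockdown libraries came from cells that received the same virus and an siRNA against Rbm43, which encodes an RNA-binding protein. The libraries labelled Cre virus, called Cre-labelled below, came from cells that received an adenovirus for the Cre recombinase, meant to excise Ppargc1a, and the same Rbm43 siRNA. Cells given Cre virus with control siRNA were not analysed here, so the effect of the virus with control siRNA has no value. The labels call the libraries of a group biological duplicates without saying whether animals or cultures were separate, so p-values measure the spread between these libraries, which may be technical. No label gives the fat depot, the age or the sex of the animals.

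Beta-adrenergic receptors couple to the stimulatory G protein, which activates adenylyl cyclase, and Adrb3 is known as the beta receptor characteristic of rodent adipocytes. The alpha-2A receptor couples to inhibitory G proteins and lowers cAMP. cAMP binds the regulatory subunits of PKA and frees the catalytic subunits, which phosphorylate hormone-sensitive lipase and perilipin to start lipolysis and, in thermogenic fat, favour Ucp1 transcription, while phosphodiesterases hydrolyse cAMP, with PDE3B acting downstream of insulin.

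Libraries held between 15775398 and 21961724 reads in genes, and 1 read was worth 0.878 to 1.217 normalized counts. Rbm43 stood at 185 and 224 normalized counts in the control libraries, at 43.7 and 46.6 in the knockdown libraries, and at 53.8 and 32.5 in the Cre-labelled libraries. Ppargc1a was not lower in the Cre-labelled libraries (463 and 469, against 399 and 423 in the knockdown libraries and 163 and 202 in the controls). A total over the whole gene also counts exons outside the excised stretch, and the labels do not say which exons are flanked, so these values do not check the excision. Adipocyte markers were present throughout: the 7 genes summed to 190700 and 175400 normalized counts in the control libraries, 252600 and 253700 in the knockdown libraries, and 210900 and 212700 in the Cre-labelled libraries. Fabp4 made up most of each sum. Of these markers 5 rose and 0 fell with Rbm43 siRNA, against 13.5% and 9.76% of all tested genes. With Cre virus 0 rose and 6 fell, against 2.62% and 5.88%, and 3 of the 6 were called without either Cre-labelled library. Against the controls, 3 markers rose in the Cre-labelled libraries and 2 fell, where 8.47% of all tested genes rose and 6.28% fell. The 2 were Adipoq, which fell by 0.25 on the log2 scale (adjusted p = 8.35e-04), and Lep, by 0.62 (adjusted p = 0.00811). Those 5 calls were 3 without the second control library, and 1 and 2 without the first and the second Cre-labelled library. For this and each further count of 0 in 1 direction, limma had 0 genes at an unadjusted p under 0.05 and edgeR and DESeq2 had 0 calls in that direction, except where other values are given. Markers of preadipocytes and fibroblasts summed to between 252600 and 294800, those of mural and smooth muscle cells to between 40320 and 56620 with both highest sums in the Cre-labelled libraries, and those of macrophages to between 1415 and 1735. Endothelial markers summed to between 245 and 355 and Schwann or neuronal markers to between 766 and 1044, with Th at 0 reads in every library, while lymphocyte markers reached at most 2.80, with Cd3d at 0. In bulk RNA, fewer cells of a type and less RNA per cell cannot be told apart, and the part of the marker shifts in the results below was not tested.

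Among the 9 genes, those for the PKA subunits and the G protein had far more RNA per length of exon than those for the receptors. Over the 6 libraries, Prkaca averaged 2007 normalized counts per kilobase of exon (range 1756 to 2260), Gnas 1513 (1463 to 1596) and Prkar2b 1474 (1284 to 1680). Gnas and Prkar2b overlapped in range and cannot be ordered. Length here was the union of all annotated exons, 11186 bases for Gnas, 2488 for Prkaca and 3652 for Prkar2b. A union longer than the transcripts present lowers the level per kilobase. The ranges over libraries do not measure this, so the order of genes depends on the lengths used. Pde3b followed at 505 (399 to 619) and Adrb3 at 346 (272 to 473), whose ranges also overlapped. Their order differed by group. Adrb3 was above Pde3b in the control libraries (472.5 and 469.5 against 398.9 and 417.9) and below it in every library with Rbm43 siRNA. Below Pde3b and Adrb3 stood Adcy3 at 122 (107 to 133), Pde4d at 51.8 (48.4 to 53.1), Adra2a at 27.0 (22.2 to 32.8) and Adrb1 at 12.2 (8.28 to 19.6), with no overlap between neighbours. Adrb1 rested on few reads, 23 to 71 per library. The plot of the 9 genes by library shows the values that the next paragraphs describe.

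**Figure D1:**
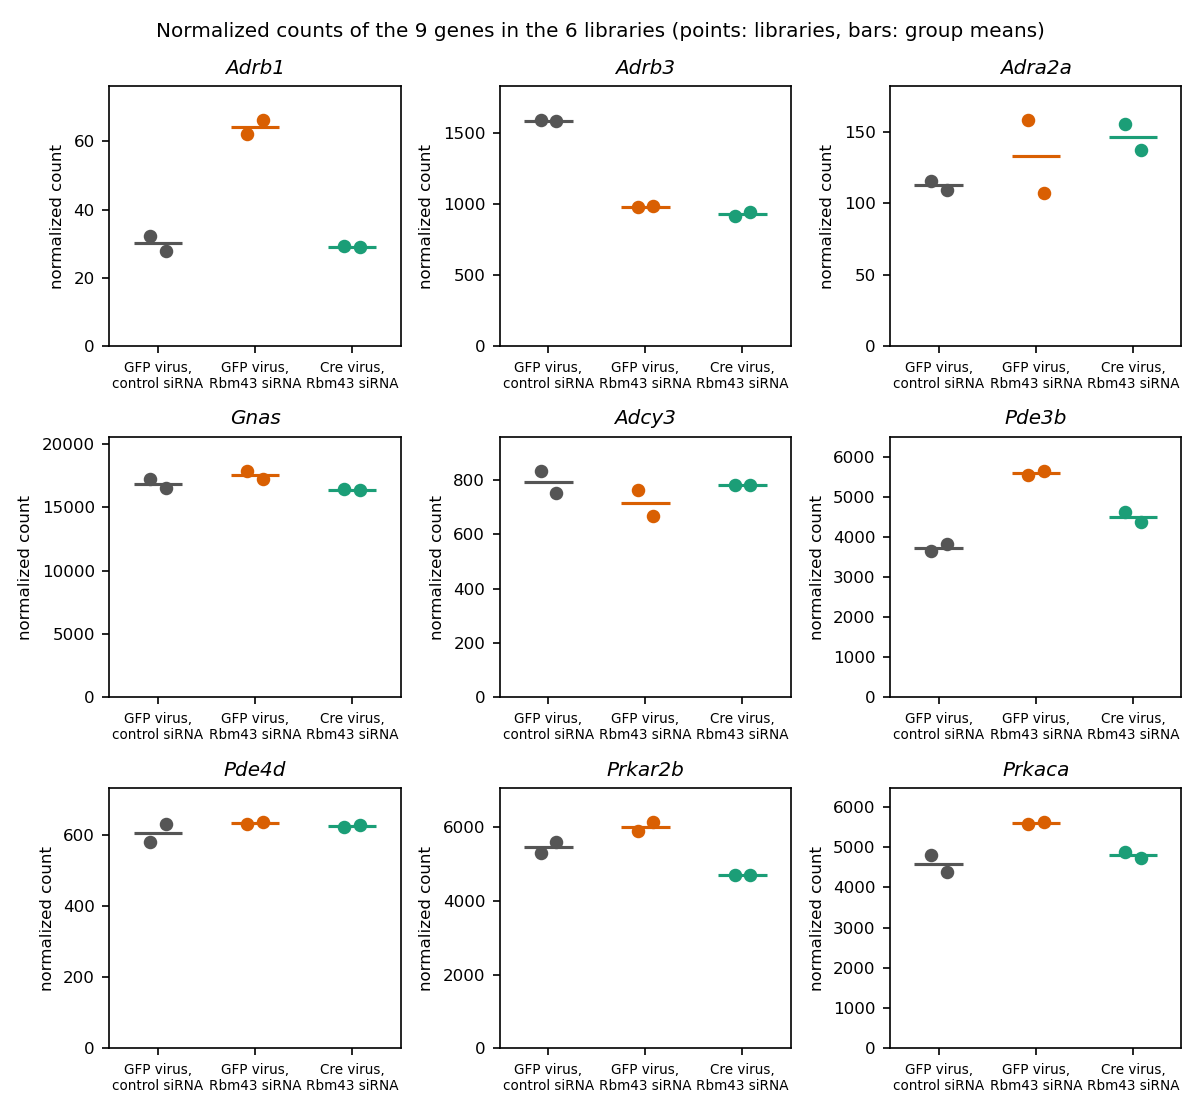
Normalized counts of the 9 genes in each of the 6 libraries (1 point per library, 1 panel per gene, colour by group, vertical axes starting at 0 and scaled per panel). Adrb1 stands at 62.1 and 66.2 only in the knockdown libraries, and Adrb3 stands at 1595 and 1585 in the control libraries and at 919 to 988 in the others. Gnas, Adcy3 and Pde4d were not called in any comparison.

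With Rbm43 siRNA in cells given GFP virus, RNA of the beta-1 receptor, the phosphodiesterase Pde3b and the PKA subunits Prkaca and Prkar2b was higher, and RNA of the beta-3 receptor was lower. Of the 9 genes, 4 rose and 1 fell, where 13.5% of all tested genes rose and 9.76% fell (23.2% in either direction). Their median log2 fold change was 0.14, against −0.01 over all tested genes. The fall of Adrb3 and the rises of Adrb1, Pde3b and Prkaca held when any 1 library was left out, while the call for Prkar2b did not.

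With Rbm43 siRNA in both groups, the Cre-labelled libraries held less RNA of Adrb1, Pde3b, Prkar2b and Prkaca than those labelled GFP virus. Of the 9 genes, 0 rose and 4 fell, where 2.62% of all tested genes rose and 5.88% fell (8.50% in either direction). The median log2 fold change was −0.10, against 0.00 over all tested genes. The balance over all genes moved with the scaling, from 372 risen and 836 fallen genes to 565 and 734 when libraries were scaled to their total counts, and the 4 genes fell under both. All 4 calls were lost when the fit assumed the same prior spread at every expression level, where 0 genes of the whole table were called (2355 at an unadjusted p under 0.05) and all 4 had an unadjusted p under 0.05. By other tools, edgeR called 1336 genes and 4 of the 9 in this comparison.

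Set against GFP virus with control siRNA, the libraries that received both Cre virus and Rbm43 siRNA had lower Adrb3 and Prkar2b and higher Pde3b. Here 1 of the 9 genes rose and 2 fell, where 8.47% of all tested genes rose and 6.28% fell (14.7% in either direction), and the median log2 fold change was −0.02 against 0.00. Every pair of the 3 comparisons shares a group of libraries, so their values are set side by side without a measure of likeness. Calls for Prkar2b and Pde3b in this comparison were lost without 1 of the Cre-labelled libraries, as given with each gene, and 1 of the 9 genes remained called without the first of them.

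**Figure D2:**
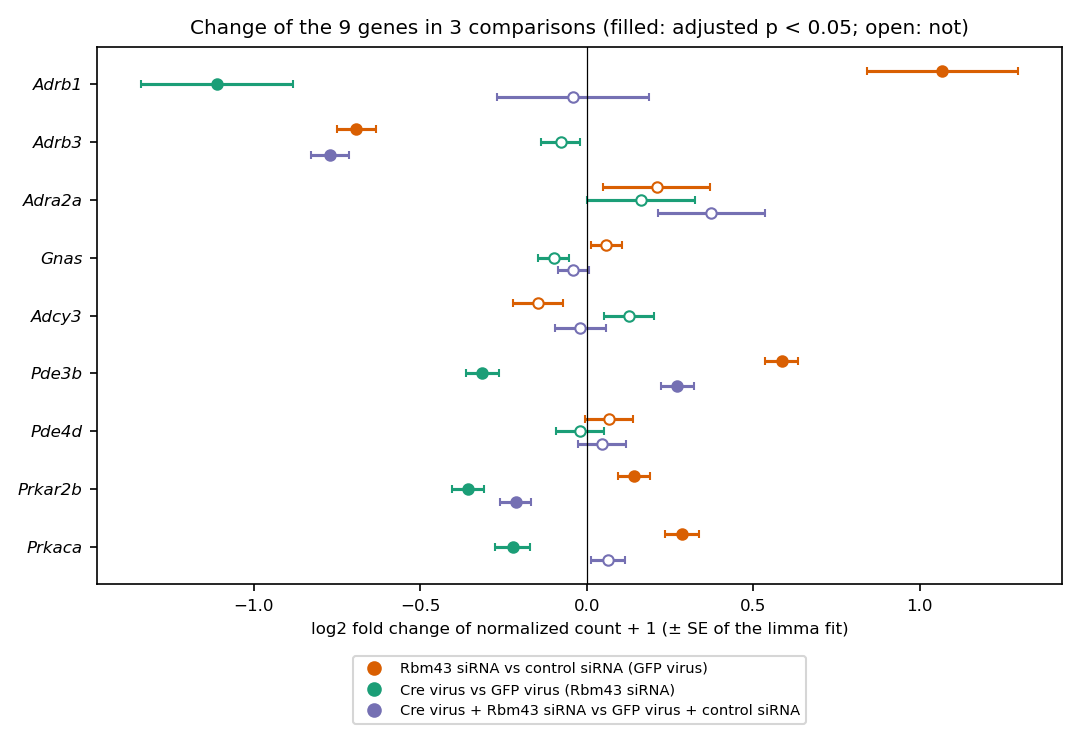
Log2 fold changes of the 9 genes in the 3 comparisons (points) with standard errors from the limma fit (bars), filled where the gene was called. Adrb3 is at −0.69 with Rbm43 siRNA and at −0.08, not called, between viruses, while Adrb1 is at 1.07 and −1.11.

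The beta-3 receptor gene Adrb3 (chromosome 8, 27225776 to 27250616, minus strand, mm10) had more RNA per kilobase of exon than Adrb1 in every library. It was measured at 1595 and 1585 normalized counts with control siRNA, 979 and 988 in the knockdown libraries, and 919 and 943 in the Cre-labelled libraries. Both control libraries were above all 4 libraries with Rbm43 siRNA. Adrb3 fell to 0.619 of control with Rbm43 siRNA, a log2 fold change of −0.69 ± 0.06 (SE, n = 2 per group, limma adjusted p = 5.57e-08), and by −0.77 ± 0.06 in the Cre-labelled libraries against the same controls (adjusted p = 2.79e-08). Both calls held under each of the 18 alternatives run. Between viruses the difference was −0.08 on the log2 scale (adjusted p = 0.493, 95% interval −0.20 to 0.04), with the 2 groups not overlapping, and the interval allows a difference of up to 0.20 in size. The annotated antisense gene Gm45470 overlaps 839 bases (24.9%) of the Adrb3 exons, and no source used here says whether the counting used strand.

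The beta-1 receptor gene Adrb1 (chromosome 19, 56722199 to 56733113, plus strand) encodes the other beta receptor among the 9 genes. It was at 32.2 and 28.0 normalized counts with control siRNA, 62.1 and 66.2 in the knockdown libraries, and 29.4 and 29.0 in the Cre-labelled libraries, from 31, 23, 64, 71, 30 and 33 reads. The knockdown libraries were about 2.10 times the controls and did not overlap either other group. Adrb1 rose with Rbm43 siRNA by 1.07 ± 0.23 on the log2 scale (adjusted p = 0.00176) and was lower with Cre virus than with GFP virus by a log2 fold change of −1.11 ± 0.23 (adjusted p = 0.00353). The second call was lost without the second knockdown library (adjusted p = 0.0655) and without either Cre-labelled library (0.0543 and 0.0571). Against control siRNA, the Cre-labelled libraries differed by −0.04 (adjusted p = 0.935, 95% interval −0.52 to 0.44), and the interval allows a difference of up to 0.52 in size.

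The alpha-2A receptor gene Adra2a (chromosome 19, 54044151 to 54048982, plus strand), whose product opposes the beta receptors, was at 116 and 110 normalized counts with control siRNA, 158 and 107 in the knockdown libraries, and 156 and 137 in the Cre-labelled libraries. The knockdown pair spread widest and spanned the controls. No comparison was called: log2 fold changes were 0.21 ± 0.16 with Rbm43 siRNA (adjusted p = 0.387), 0.16 between viruses (adjusted p = 0.630) and 0.37 for Cre virus with Rbm43 siRNA against control (adjusted p = 0.136, 95% interval 0.04 to 0.71). The first of these became −0.07 without the first knockdown library, and the second became −0.12 without the second library of that group.

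Promoters of both receptors on chromosome 19 are shown because each holds a half-site of the cAMP response element, the sequence that CREB-family factors recognise. Each runs from 250 bases before to 50 after the RefSeq start site (GRCm38.p6, the same assembly as mm10). Adrb1 lies at chr19:56721867-56722166 and Adra2a at chr19:54045009-54045308, both on the plus strand, printed 5′ to 3′ with the half-site TGACG in capitals.
Adrb1: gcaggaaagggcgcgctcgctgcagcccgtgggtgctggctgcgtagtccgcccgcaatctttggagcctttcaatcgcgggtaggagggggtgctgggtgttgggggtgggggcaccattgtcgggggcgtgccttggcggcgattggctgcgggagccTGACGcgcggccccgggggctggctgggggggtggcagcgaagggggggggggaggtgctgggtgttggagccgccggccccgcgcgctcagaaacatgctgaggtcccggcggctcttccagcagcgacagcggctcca
Adra2a: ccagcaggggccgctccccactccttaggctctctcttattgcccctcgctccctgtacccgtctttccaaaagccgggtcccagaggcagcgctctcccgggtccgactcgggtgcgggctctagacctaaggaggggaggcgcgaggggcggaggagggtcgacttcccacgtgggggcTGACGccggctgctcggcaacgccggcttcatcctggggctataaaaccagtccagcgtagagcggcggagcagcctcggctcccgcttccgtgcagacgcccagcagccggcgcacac
The half-site started at position −90 from the Adrb1 start and at −69 from the Adra2a start. Searched on both strands, TGACG was in 20.8% of 32851 RefSeq promoters of this length, and the full element TGACGTCA in 1.79%. Adrb1, whose RNA changed, and Adra2a, whose RNA was not called, both carried the half-site, and neither held the full element. A match is a description of these letters, not of binding.

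Per kilobase of exon, Adrb1 made up 1.98% and 1.73% of the summed Adrb1 and Adrb3 level with control siRNA, 5.96% and 6.27% in the knockdown libraries, and 3.09% and 2.98% in the Cre-labelled libraries. Adrb3 was thus above Adrb1 in every library, while its excess per kilobase went from 49.6 and 56.7 times in the controls to 15.8 and 14.9 times in the knockdown libraries, and stood at 31.4 and 32.6 times in the Cre-labelled libraries. Of the alpha receptors, Adra1d had the most RNA at 180 normalized counts per kilobase and Adra1a 38.2, against 27.0 for Adra2a, while Adra1b and Adra2b were lower and Adra2c had 0 reads in every library, which allows up to 3 reads per library for counting error. Of the alpha receptors tested, only Adra1a was called. Adra1a, which couples to calcium release, was at 335 and 326 normalized counts with control siRNA, 386 and 405 in the knockdown libraries, and 271 and 277 in the Cre-labelled libraries. Its log2 fold changes were 0.26 (adjusted p = 0.0404), −0.53 (adjusted p = 6.18e-04) and −0.27 (adjusted p = 0.0439), and leaving out 1 library ended the first call for 5 of the 6 libraries (adjusted p up to 0.222), all but the first control, and the third call for each of the 6 (up to 0.240).

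**Figure D3:**
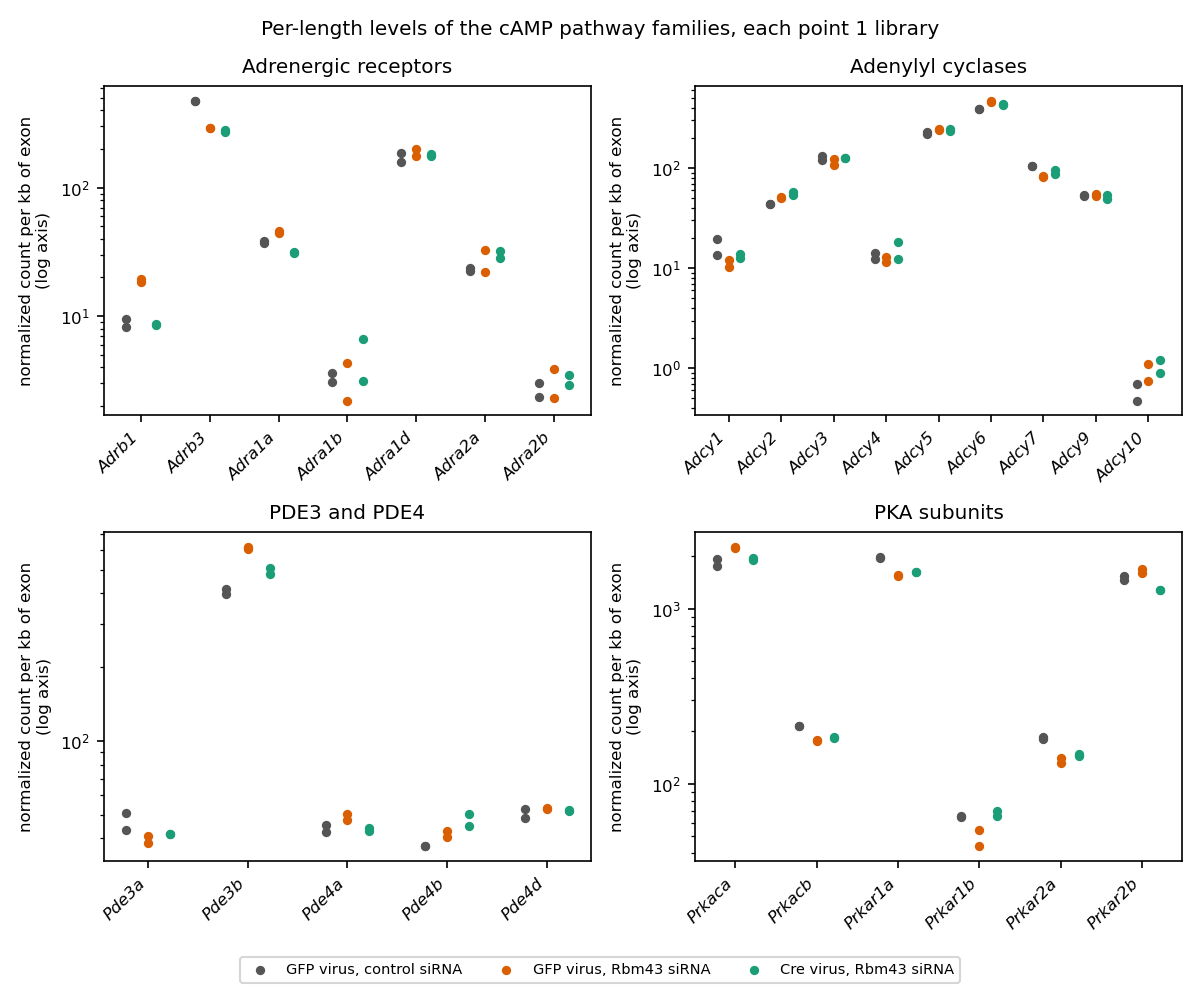
Normalized counts per kilobase of exon (log axis) of adrenergic receptors, adenylyl cyclases, PDE3 and PDE4 genes and PKA subunits, with 1 point per library and colour by group. Adrb3 tops the receptors shown and Adcy6 the cyclases in every library, and the Adrb1 points in the knockdown libraries lie above those of the other groups.

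**Figure D4:**
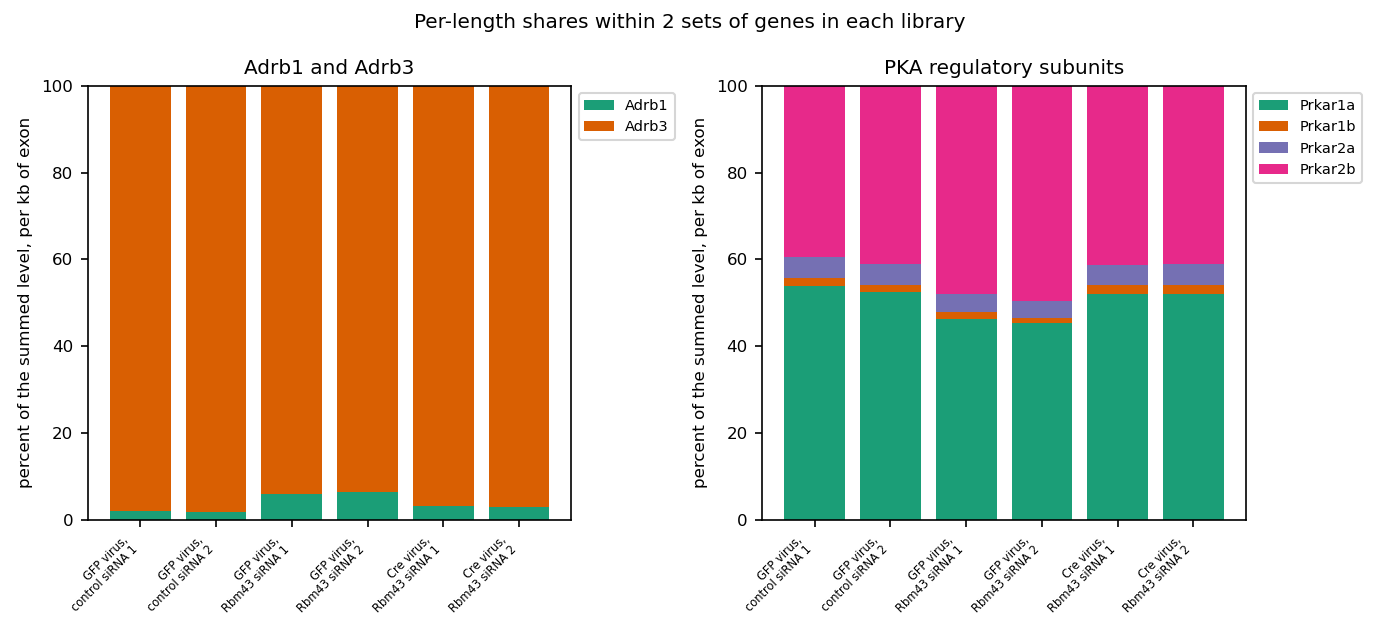
Share of each gene in the per-kilobase RNA of Adrb1 and Adrb3 (left) and of the PKA regulatory subunits (right), 1 bar per library. Adrb1 takes 5.96% and 6.27% of the Adrb1 and Adrb3 level in the knockdown libraries, and Prkar2b takes 48.0% and 49.6% of regulatory subunit RNA there against 39.4% and 41.1% in the controls.

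Gnas (chromosome 2, 174284320 to 174346744, plus strand), which encodes the G protein alpha subunit that couples beta receptors to adenylyl cyclase, was not called in any comparison. It was at 17220 and 16470 normalized counts with control siRNA, 17850 and 17250 in the knockdown libraries, and 16390 and 16370 in the Cre-labelled libraries. The 2 knockdown libraries were above the other 4, but the lower of them (17250) only just exceeded the higher control (17220). That margin was much smaller than the spread within either GFP virus group. Log2 fold changes were 0.06 ± 0.05 (adjusted p = 0.400), −0.10 (adjusted p = 0.225) and −0.04 (adjusted p = 0.630), none called, and the 95% interval of the first ran from −0.04 to 0.16. Gnas is a complex locus with several start sites and with 2 annotated genes on the opposite strand. The protein-coding gene Gm20721 overlaps 1469 bases (13.1%) of its exons. The antisense gene Nespas overlaps 988 bases (8.8%) and was itself counted at 4.16 to 13.7 normalized counts. Genes for inhibitory alpha subunits were called: Gnai1, at 820 and 788 in the controls, was at 1537 and 1512 in the knockdown libraries and at 1287 and 1343 in the Cre-labelled libraries. Gnai1 rose by 0.92 on the log2 scale with Rbm43 siRNA (adjusted p = 2.53e-09), while Gnai2 fell by 0.27 (adjusted p = 0.00167). Among the 16 other G protein genes tested, 4 rose and 5 fell with Rbm43 siRNA, where 13.5% of all tested genes rose and 9.76% fell, and the 4 rises were 2 without the first knockdown library. Between viruses 0 rose (1 at an unadjusted p under 0.05) and 2 fell, against 2.62% and 5.88% of all tested genes. Of the 2 that fell, Gnai1 lost its call without any 1 of the 4 libraries compared (adjusted p up to 0.329) and Gnao1 without the first Cre-labelled library (0.103).

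Adcy3 (chromosome 12, 4133103 to 4213525, plus strand), an adenylyl cyclase that makes cAMP from ATP, was at 833 and 752 normalized counts with control siRNA, 764 and 669 in the knockdown libraries, and 781 and 782 in the Cre-labelled libraries. Its duplicates differed by more than the groups did in both GFP virus groups, which overlapped. Adcy3 was not called, with log2 fold changes of −0.15 ± 0.08 (adjusted p = 0.180), 0.13 (adjusted p = 0.367) and −0.02 (adjusted p = 0.911). The first passed the threshold without the second control library, at −0.22 (adjusted p = 0.0367). Cenpo lies on the opposite strand over 1380 bases (22.1%) of the Adcy3 exons and was counted at 92.3 to 138 normalized counts. Adcy3 contributed 10.4% to 13.7% of cyclase RNA per kilobase, and Adcy6 contributed more, at 428 normalized counts per kilobase against 122 for Adcy3, with Adcy5 at 234. Adcy6 rose with Rbm43 siRNA by 0.26 (adjusted p = 6.34e-04) and Adcy7 fell by 0.35 (adjusted p = 0.00124). Adcy1 also fell, by 0.55 (adjusted p = 0.0102), a call lost without the second control library or the second knockdown library (up to 0.171). Between viruses limma called 0 of the 8 other genes of the cyclase list (1 higher and 1 lower at an unadjusted p under 0.05), and edgeR and DESeq2 called 0.

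Pde3b (chromosome 7, 114415281 to 114539251, plus strand), the phosphodiesterase through which insulin restrains lipolysis, had the most RNA per kilobase of exon among the PDE3 and PDE4 genes. It was at 3636 and 3809 normalized counts with control siRNA, 5530 and 5642 in the knockdown libraries, and 4618 and 4373 in the Cre-labelled libraries. No 2 groups overlapped, and the Cre-labelled libraries lay between the other groups. Pde3b rose with Rbm43 siRNA by 0.59 ± 0.05 on the log2 scale (adjusted p = 5.57e-08). It was lower with Cre virus than with GFP virus by a log2 fold change of −0.31 ± 0.05 (adjusted p = 3.55e-04) and higher than with control siRNA by 0.27 ± 0.05 (adjusted p = 6.85e-04). The last call was lost without the first Cre-labelled library (0.23, adjusted p = 0.0623).

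Pde4d (chromosome 13, 108449948 to 109953461, plus strand), a cAMP-specific phosphodiesterase, was at 581 and 632 normalized counts with control siRNA, 631 and 637 in the knockdown libraries, and 623 and 628 in the Cre-labelled libraries. All 6 libraries lay within the spread of the 2 controls, except the higher knockdown library, which exceeded it. Log2 fold changes were 0.07 ± 0.07 (adjusted p = 0.559, 95% interval −0.08 to 0.22), −0.02 (adjusted p = 0.913) and 0.05 (adjusted p = 0.738). Pde3b exceeded Pde4d per kilobase by 8.25 and 7.94 times in the controls, 11.5 and 11.7 times in the knockdown libraries, and 9.77 and 9.17 times in the Cre-labelled libraries. Of the 12 other phosphodiesterase genes tested, 3 rose and 1 fell with Rbm43 siRNA, against 13.5% and 9.76% of all tested genes, and these 4 calls were 2 without either knockdown library. The rise of Pde8a was lost without the first control library or either knockdown library (adjusted p up to 0.109). The cAMP-specific genes Pde7a and Pde7b rose by 0.34 (adjusted p = 4.64e-04) and 0.48 (adjusted p = 0.00123), and between viruses limma called 0 of the 12 (3 higher and 1 lower at an unadjusted p under 0.05), as did edgeR and DESeq2. Pde4a was not called in any comparison. Pde4b was called only against control siRNA in the Cre-labelled libraries, at 0.35 (adjusted p = 0.00615), a call lost without the second of those libraries (adjusted p = 0.160). The fall of Pde3a with Rbm43 siRNA, by 0.24 (adjusted p = 0.0386), was lost without any 1 of 5 libraries, all but the first control (up to 0.297).

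Prkaca (chromosome 8, 83972993 to 83996443, plus strand) encodes the main catalytic subunit of PKA. It was at 4811 and 4368 normalized counts with control siRNA, 5567 and 5623 in the knockdown libraries, and 4868 and 4721 in the Cre-labelled libraries. The knockdown libraries were above the other 4, which overlapped. Prkaca rose with Rbm43 siRNA by 0.29 ± 0.05 on the log2 scale (adjusted p = 3.66e-04), and was lower with Cre virus than with GFP virus by a log2 fold change of −0.22 ± 0.05 (adjusted p = 0.00863). The second call was lost without the second knockdown library (adjusted p = 0.0841), without either Cre-labelled library (0.110 and 0.209) and with no filter on low values (0.0628). Against control siRNA the Cre-labelled libraries differed by 0.06 (adjusted p = 0.461, 95% interval −0.04 to 0.17), which passed the threshold without the first control library (0.13, adjusted p = 0.0484).

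Prkar2b (chromosome 12, 31958476 to 32061296, minus strand) encodes the type II beta regulatory subunit, the PKA regulatory form known as characteristic of fat and brain. It was at 5304 and 5586 normalized counts with control siRNA, 5881 and 6136 in the knockdown libraries, and 4696 and 4689 in the Cre-labelled libraries. The 3 groups did not overlap, and the lowest were the Cre-labelled libraries. Prkar2b rose slightly with Rbm43 siRNA, by 0.14 ± 0.05 (adjusted p = 0.0379), and this call was lost under 11 of 18 alternatives, among them DESeq2 on the recovered reads (0.0652) and the omission of any 1 library but the second control (up to 0.243). Prkar2b fell in the other comparisons, with log2 fold changes of −0.36 ± 0.05 between viruses (adjusted p = 8.93e-05), a call that held without any 1 library, and −0.21 ± 0.05 for Cre virus with Rbm43 siRNA against control (adjusted p = 0.00441). The last was lost without the first or the second Cre-labelled library (0.0926 and 0.0908).

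Windows at 1 start site of Prkaca (chr8:83972728-83973027, plus strand) and 1 of Prkar2b (chr12:32061228-32061527, minus strand) are shown because RNA of both subunits fell between viruses, while the half-site was found for Prkaca and not for Prkar2b. Both follow RefSeq on GRCm38.p6, and capitals mark CGTCA, the reverse complement of TGACG.
Prkaca: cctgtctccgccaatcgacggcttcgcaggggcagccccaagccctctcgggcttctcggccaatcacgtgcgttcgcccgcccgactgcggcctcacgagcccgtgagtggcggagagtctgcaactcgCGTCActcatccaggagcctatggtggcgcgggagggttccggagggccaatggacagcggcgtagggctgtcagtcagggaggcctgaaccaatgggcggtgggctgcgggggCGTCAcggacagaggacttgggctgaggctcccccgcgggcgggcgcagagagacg
Prkar2b: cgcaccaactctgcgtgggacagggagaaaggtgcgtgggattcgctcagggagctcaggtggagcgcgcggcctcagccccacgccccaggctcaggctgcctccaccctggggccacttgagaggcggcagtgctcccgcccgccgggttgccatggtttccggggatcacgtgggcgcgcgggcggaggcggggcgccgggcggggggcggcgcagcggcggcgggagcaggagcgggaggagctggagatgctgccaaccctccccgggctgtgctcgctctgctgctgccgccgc
In Prkaca the matches began at positions −120 and −6 from the start. RefSeq promoters were found for 7 of the 9 genes, as 13 start sites, and not for Adrb3 and Pde3b. Of these 7 genes, 4 held the half-site in at least 1 window (Adrb1, Adra2a, Gnas and Prkaca), and 0 held the full element. Counted in the same way, 23.0% of 27025 genes with RefSeq promoters held the half-site and 2.03% the full element. Adra2a and Gnas, among these 4, were not called in any comparison.

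With Rbm43 siRNA the 4 other PKA subunit genes fell, where Prkaca and Prkar2b rose. Prkar1a, the widely expressed type I regulatory subunit, was at 8584 and 8430 normalized counts with control siRNA, 6702 and 6634 in the knockdown libraries, and 7010 and 7019 in the Cre-labelled libraries. It fell by 0.35 on the log2 scale (adjusted p = 8.71e-06), and so did Prkar2a by 0.43 (adjusted p = 4.46e-05), the second catalytic subunit gene Prkacb by 0.28 (adjusted p = 6.22e-04) and Prkar1b by 0.41 (adjusted p = 0.0116). Of the 6 other genes for PKA subunits and PKA inhibitors tested, 0 rose and 4 fell, against 13.5% and 9.76% of all tested genes. The 6 had a median log2 fold change of −0.32, and the inhibitor genes Pkia and Pkig were not called. The call for Prkar1b was lost without the second knockdown library (adjusted p = 0.195), and the other 3 held without any 1 library.

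Among the regulatory subunits, Prkar2b took its largest share of RNA in the knockdown libraries. Per kilobase its share was 39.4% and 41.1% in the controls, 48.0% and 49.6% in the knockdown libraries, and 41.2% and 41.1% in the Cre-labelled libraries. Relative to Prkar1a, Prkar2b went from 0.731 and 0.784 to 1.04 and 1.09, and was at 0.793 and 0.791 in the Cre-labelled libraries. Prkaca made up 90.1% and 89.1% of catalytic subunit RNA in the controls, 92.7% and 92.8% in the knockdown libraries, and 91.4% and 91.2% in the Cre-labelled libraries. Between viruses 1 of the 6 other subunit and inhibitor genes was called, against 8.5% of all tested genes. It was Prkar1b, which rose by 0.47 (adjusted p = 0.0122, lost without the second knockdown library or without either Cre-labelled library, up to 0.244). Against control siRNA, the Cre-labelled libraries had lower Prkar1a (−0.28, adjusted p = 2.13e-04), Prkar2a (−0.32, adjusted p = 0.00148) and Prkacb (−0.22, adjusted p = 0.00831). Omitting the first Cre-labelled library ended the call for Prkar2a (adjusted p = 0.0587), and omitting either ended that for Prkacb (up to 0.122).

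Lipolysis is a main output of PKA in fat, and the list for it shares Fabp4, Lipe and Plin1 with the 7 adipocyte markers. Of its 9 genes, 8 rose and 1 fell with Rbm43 siRNA (median log2 fold change 0.34). Over all tested genes, 13.5% rose and 9.76% fell. Between viruses 0 of the 9 rose and 8 fell (median −0.24), against 2.62% and 5.88% of all tested genes. Plin5, a lipid droplet protein that PKA phosphorylates, was at 464 and 437 normalized counts with control siRNA, 848 and 806 in the knockdown libraries, and 473 and 512 in the Cre-labelled libraries. Plin5 rose by 0.87 (adjusted p = 7.63e-08) and was lower with Cre virus by a log2 fold change of −0.75 (adjusted p = 5.22e-06). The hormone-sensitive lipase gene Lipe rose by 0.34 (adjusted p = 2.72e-05) and was lower with Cre virus by −0.30 (adjusted p = 4.18e-04). Aqp7, a channel for glycerol release, was the gene that fell, by 0.36 with Rbm43 siRNA (adjusted p = 5.77e-04), and it was lower again with Cre virus, by −0.41 (adjusted p = 6.00e-04). These calls for Plin5, Lipe and Aqp7 held without any 1 library, while those of the other 5 genes that fell between viruses were each lost without at least 2 of the 4 libraries compared. Without either Cre-labelled library 3 of the 8 calls between viruses were left.

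Across all 13 lists of the pathway, 136 genes beside the 9 were tested, of 152 in the table. With Rbm43 siRNA 37 of them rose and 21 fell, 42.6% against 23.2% of all tested genes. Between viruses 6 rose and 19 fell, 18.4% against 8.50%, and for Cre virus with Rbm43 siRNA against control 32 rose and 15 fell, 34.6% against 14.7%. The count of 25 between viruses was 39 without either control library, 12 without the second knockdown library, and 11 and 7 without the first and the second Cre-labelled library. The count of 47 in the last comparison was 22 and 25 without the first and the second of the latter. Adrbk2, which encodes a kinase that desensitises receptors, was at 103 and 81.6 normalized counts with control siRNA, 235 and 240 in the knockdown libraries, and 188 and 202 in the Cre-labelled libraries. Adrbk2 rose by 1.36 with Rbm43 siRNA (adjusted p = 2.77e-07). Akap1, which anchors PKA at mitochondria, rose by 0.45 (adjusted p = 8.31e-06). The plot of the pathway lists shows where called genes lie in each list.

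**Figure D5:**
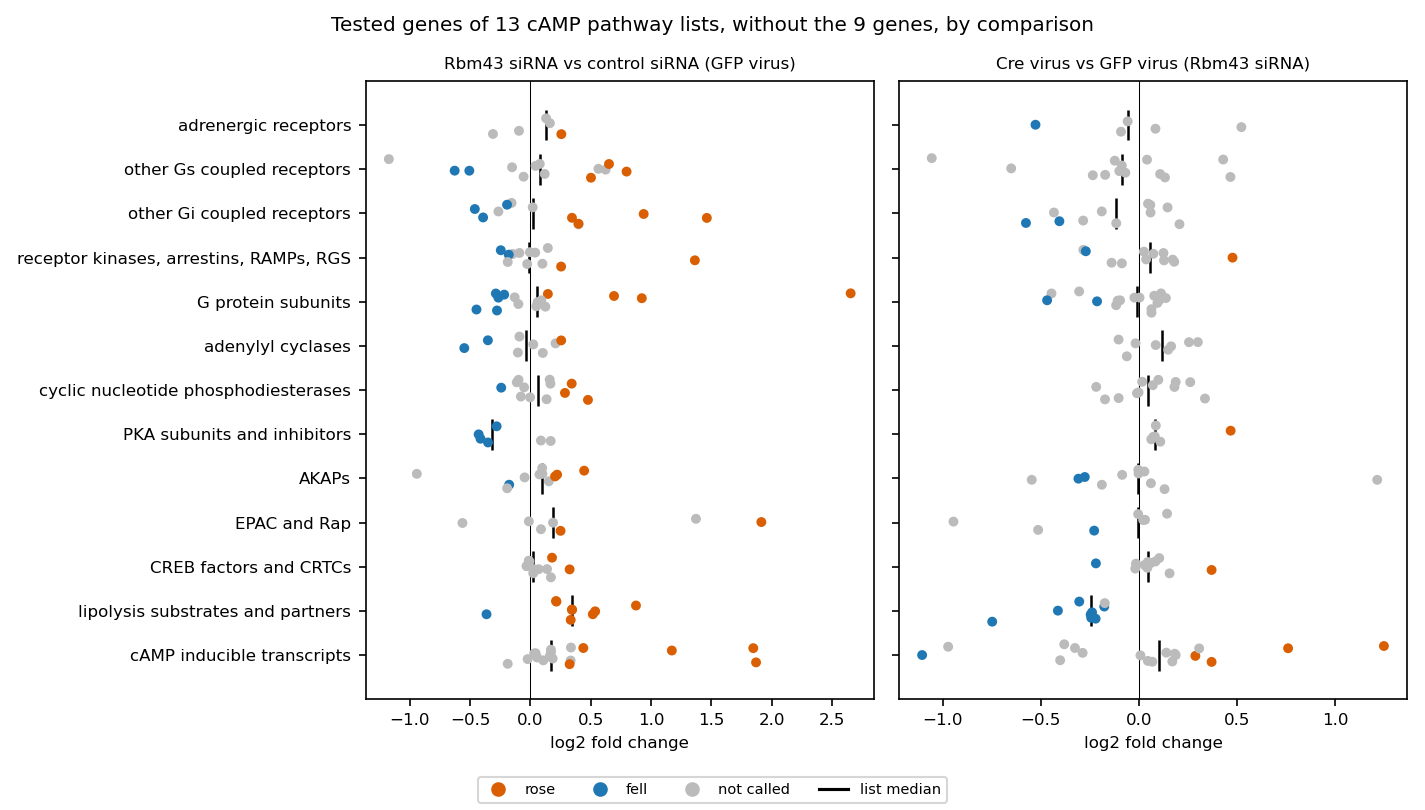
Log2 fold changes of tested genes in the 13 cAMP pathway lists without the 9 genes, for Rbm43 siRNA (left) and for Cre virus (right), each point 1 gene, coloured where called, with a bar at each list's median. With Rbm43 siRNA the PKA subunits and inhibitors have a median of −0.32 and the lipolysis genes one of 0.34, and between viruses the lipolysis genes have a median of −0.24.

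Genes whose pattern over the 6 libraries was most like that of each called gene were found by Pearson's r of log2(normalized count + 1), among genes of mean normalized count at least 50. With 6 libraries in 3 groups such coefficients are close to 1 for many genes and are given as a description. For Adrb1 they were Rmdn3 (r = 0.999), Mrpl41 (0.999) and the mitochondrial complex I gene Ndufs7 (0.998). For Adrb3 they were the myelin gene Pmp22 (0.999), Eif4ebp2 (0.998) and Tspan31 (0.998), and for Pde3b they were Avpi1 (0.999), 2610507B11Rik (0.997) and Klhdc7a (0.997). Prkaca was nearest to Ccdc91 (0.998), Dolk (0.997) and the complex I gene Ndufb7 (0.997), and Prkar2b to Polr2b (0.997), Tmx2 (0.995) and Scp2 (0.994).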

How the data were processed

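RNA of 6 libraries was sequenced as paired ends from a stranded mRNA kit, per the labels' protocols. The authors deposited normalized counts per gene, a signal equal to reads divided by 1 size factor per library. Values were whole multiples of 1 read within 0.01 read (100% of values), so reads were recovered. Tools named in the submitters' processing notes were STAR 2.7.8, fastp 0.23.2 and DESeq2 2.11.40.7, with mm10 as the build. Not given in the sources used here are the gene counter, its annotation and its strand setting.

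The 14211 genes that reached a normalized count of 10 in 2 or more libraries were tested with limma 3.58.1 (R 4.3.3) on log2(normalized count + 1). The fit had a mean-variance trend, 1 mean per group and 3 residual degrees of freedom. P-values were adjusted over all tested genes by the Benjamini-Hochberg method, where "rose", "fell" and "called" mean an adjusted p under 0.05. This scale understates changes of low genes. Errors are standard errors, and alternatives included edgeR 4.0.16 and DESeq2 1.42.0 on recovered reads. The procedure was tested on simulated data in which some genes of 1 group changed. Those changes were larger than many reported here, so smaller ones were not tested.

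Exon lengths and positions came from GENCODE M21, and promoters from RefSeq (GRCm38.p6). The 9 genes, the pathway lists and the markers were chosen with earlier results of these data known. Named beside the 9 genes were called genes of mean normalized count at least 50, up to 5 per list and comparison by smallest p, other adrenergic receptors, cyclases, PKA subunits and PDE3 and PDE4 genes, and the 3 nearest patterns per called gene. Dio2 and Nr4a3, of lower mean, and the markers Adipoq, Lep and Fabp4 were named after their values were seen. Groups and replicate numbers came from the sample titles. Values of 1 listed pathway gene and 1 marker are not reported here.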

Additional observations from a re-analysis of the deposited data

How the results depend on the processing

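Of 484 values of the 9 genes under 18 alternatives, 447 kept their direction and side of the threshold, 28 lost a call, 2 gained one and 7 changed sign, all 7 in comparisons in which the gene was not called. Those were Adra2a with Rbm43 siRNA (range with 1 library left out −0.068 to 0.49) and between viruses (−0.12 to 0.44), Pde4d between viruses with total-count scaling (0.0047), and, against control siRNA in the Cre-labelled libraries with 1 library left out, Adrb1 (−0.14 to 0.058), Adcy3 (−0.093 to 0.055), Pde4d (−0.015 to 0.11) and Prkaca (−0.0052 to 0.13). With no mean-variance trend, all-gene calls in the 3 comparisons were 1304, 0 (2355 at an unadjusted p under 0.05) and 433, against 3301, 1208 and 2096, calls among the 9 genes were 3, 0 and 1 and calls in the pathway lists 27, 0 and 14, where 58, 25 and 47 were called with the trend. With no filter, 609 and 1251 genes were called in the second and the third comparison and 13 pathway genes in the second. A fit of only the 2 groups compared called 2083 genes and 39 pathway genes between viruses, and DESeq2 called 2045 and 1229 genes in the first and the third comparison. With 1 library left out, all-gene calls ranged from 2115 to 3633, 312 to 2068 and 770 to 2654, calls among the 9 genes from 2 to 4 between viruses and 1 to 4 in the third comparison, and pathway calls from 7 to 39 and 22 to 49. DESeq2 gave no adjusted p for Adrb1 and Adra2a between viruses.

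Replicate numbers did not pair the libraries (correlations of replicate differences between groups 0.019, −0.042 and −0.037), and a fit with the replicate block called 3412, 1304 and 2214 genes, 5, 4 and 3 of the 9 genes and 57, 28 and 46 pathway genes. Adrb1 was limited by its 23 to 71 reads per library, where the standard error was 0.23 against 0.05 for Gnas.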

Other observations

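Receptors that signal through the inhibitory G protein changed in both directions. Of 11 tested beside Adra2a, 4 rose and 3 fell with Rbm43 siRNA in cells given GFP virus, against 13.5% and 9.76% of all tested genes, and the 7 calls were 4 without the second knockdown library. The cannabinoid receptor gene Cnr1 was at 73.9 and 79.1 normalized counts with control siRNA, 204 and 221 in the knockdown libraries, and 194.8 and 251.2 in the Cre-labelled libraries. Cnr1 rose by 1.46 on the log2 scale with Rbm43 siRNA (limma adjusted p = 2.01e-07), and differed by 0.06 between viruses (adjusted p = 0.860). The prostaglandin receptor gene Ptger3 also rose with Rbm43 siRNA, by 0.94 (adjusted p = 1.18e-04). The adenosine receptor gene Adora1, whose product restrains lipolysis, fell by 0.46 (adjusted p = 1.16e-04). These 3 calls held without any 1 library. Among 13 tested genes of another list, most of them for receptors that raise cAMP, 3 rose (Gipr by 0.65, Mc5r by 0.80 and Mc2r by 0.50 on the log2 scale) and 2 fell (Adcyap1r1 by 0.63, adjusted p = 4.45e-04, and Ptger4 by 0.51, adjusted p = 0.0150). The call for Ptger4 was lost without the second control library or the second knockdown library (up to 0.107), and the other 4 held without any 1 library.

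Transcripts known to be induced by cAMP had 5 risen and 0 fallen of 18 tested with Rbm43 siRNA, where 13.5% of all tested genes rose, and without the first knockdown library 3 of the 5 calls were left. Between viruses 4 rose (Nr4a1, Nr4a3, Junb and Sik1) and 1 fell, where 2.62% of all tested genes rose. All 4 of these rises lost their call without the second knockdown library or the second Cre-labelled library, and all but Nr4a1 without the first Cre-labelled library (adjusted p up to 0.405). For Cre virus with Rbm43 siRNA against control, 10 rose and 0 fell, where 8.47% of all tested genes rose. Ppargc1a, the gene that Cre virus is meant to excise, was among these 10 and among the 5 that rose with Rbm43 siRNA. Its total also counts exons outside the excised stretch. Of the 10, 6 were called without either Cre-labelled library. Sik1, a kinase gene induced by cAMP, was at 214 and 205 normalized counts with control siRNA, 279 and 247 in the knockdown libraries, and 328 and 351 in the Cre-labelled libraries, and in that last comparison it rose by 0.69 (adjusted p = 7.11e-05). The nuclear receptor gene Nr4a1 rose there by 0.93 (adjusted p = 2.41e-04), while Ucp1, the uncoupling protein gene of thermogenic fat, went from 284 and 248 to 1043 and 909 in the knockdown libraries and 445 and 459 in the Cre-labelled libraries. Dio2, the thyroid hormone deiodinase gene, rose by 1.85 with Rbm43 siRNA (adjusted p = 3.14e-05) and was not called between viruses (−0.40, adjusted p = 0.425).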
